A study of Homo sapiens with 15 samples.

Results

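Chromosome 19 carries the densest collection of zinc finger genes in the human genome, and their RNA was followed here in UKE-1 cells, a human line from a myeloproliferative neoplasm with mutated JAK2. The genes were chosen as protein-coding genes of chromosome 19 whose symbol is ZNF followed by a number, with at most 1 letter after it, and whose raw count averaged at least 10 over the 15 libraries. Of 246 genes with such a name, type and position, 192 reached that count, and they are called the members below. The table held 58735 genes in all. Just inside the limit lay ZNF878, ZNF563 and ZNF682 with mean counts of 11.2, 11.3 and 13.2, and just outside it ZNF433, ZNF763 and ZNF568 with 9.8, 9 and 7.47. Of the 54 genes left out, 20 had no count in any library.

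Most of these genes encode proteins with a row of C2H2 zinc fingers that reads DNA and, at the other end, a KRAB domain. The KRAB domain binds the scaffold protein TRIM28, which brings the histone methyltransferase SETDB1, HP1 proteins, and the NuRD complex to the bound site and so silences it. Many of the targets are transposable elements, and the genes themselves arose by repeated tandem duplication, which is why they stand in clusters of related neighbours.

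The 15 libraries made 5 groups of 3, all of UKE-1 cells that the labels give as WT: cells stimulated with TNF-α and then given MCL and ruxolitinib together, cells stimulated with TNF-α and given MCL, cells stimulated with TNF-α and given ruxolitinib, cells stimulated with TNF-α alone, and untreated cells. The title names micheliolide, a sesquiterpene lactone, and MCL is read as its short form. Ruxolitinib blocks the JAK1 and JAK2 kinases. Collection followed treatment by 3 h, per the labels. No source used here gives doses, how long TNF-α acted, or whether replicates were independent cultures, so the p-values cover a spread that may be only technical. All drug groups also carry TNF-α, and no group had a drug without it.

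Library totals ranged from 15476399 to 18035604 counts, and 16146 genes were tested, all 192 members among them. The 7 haematopoietic markers PTPRC, CD34, KIT, GATA1, GATA2, SPI1 and ITGA2B all passed the filter on low counts. Their summed level lay between 1990 and 2070 CPM (a gene's counts scaled to a common library size) with both drugs, 2510 and 2550 with MCL, 2970 and 2990 with ruxolitinib, 2980 and 3030 with TNF-α alone and 2860 and 2900 in untreated cells. The 8 markers examined of epithelial cells, fibroblasts and lymphocytes summed to 5.87 to 10.4 CPM in the 15 libraries, with EPCAM, KRT19 and MS4A1 at 0 counts. Mitochondrial genes took 4.21% to 4.46% of counts with both drugs, 4.35% to 4.78% with MCL, 5.44% to 5.53% with ruxolitinib, 4.94% to 5.21% with TNF-α alone and 5.10% to 5.32% in untreated cells. The part of these shifts in the results was not tested.

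The members were mostly genes of low RNA level. Their median level was 8.48 CPM, from 0.676 to 120.3 CPM, against a median of 17.9 CPM over all tested genes. Per kilobase of gene length the members had a median of 1.48 CPM. The highest level per kilobase belonged to ZNF146 with 29 CPM, which encodes a protein made almost only of fingers, followed by ZNF428 with 22.7, ZNF787 with 19.5 and ZNF581 with 12.1 CPM per kilobase. The lowest were ZNF506, ZNF682, ZNF470 and ZNF43 with 0.158, 0.160, 0.178 and 0.195 CPM per kilobase. Together the 192 members took 0.232% of all counts with both drugs, 0.213% with MCL, 0.217% with ruxolitinib, 0.216% with TNF-α alone and 0.223% in untreated cells. Their summed level was 2253 ± 16.3 CPM with both drugs, 2130 ± 22.4 with MCL, 2183 ± 23.1 with ruxolitinib, 2218 ± 14.7 with TNF-α alone and 2234 ± 27.9 in untreated cells (SD, n = 3 each). In such bulk samples, fewer cells of a type and less RNA per cell cannot be told apart.

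A change was called at an adjusted p under 0.05 in edgeR's quasi-likelihood test, corrected over all tested genes. With both drugs against TNF-α alone, 51 members rose and 42 fell, 48.4% of the 192, beside 54.8% of all tested genes called (25.5% higher and 29.3% lower). The median log2 change was 0.03 over the members and -0.03 over all tested genes. The member median was 0.0047 without TNF-α replicate 1, 0.016 without combination replicate 3 and 0.062 without combination replicate 2. With the library totals as scale in place of TMM factors, 65.3% of the called members were higher, against 54.8% with TMM. The single treatments moved few members. MCL against TNF-α alone raised 8 and lowered 21 (15.1% called, beside 26% of all tested genes, 10.9% higher and 15.1% lower), with a median log2 change of -0.06 over the members and -0.02 over all genes. Ruxolitinib against TNF-α alone raised 6 and lowered 8 (7.29% called, beside 15.7% of all tested genes, 5.15% higher and 10.6% lower), and TNF-α against untreated cells raised 6 and lowered 7 (6.77% called, beside 26.6%, 14.1% higher and 12.5% lower). The share of called members that were higher was 27.6% for MCL, 42.9% for ruxolitinib and 46.2% for TNF-α with TMM, and 43.3%, 58.3% and 18.8% with library totals. The shares with library totals were not made for all tested genes. That scale also moved the median log2 change of all tested genes, by 0.033 for MCL, 0.023 for ruxolitinib and -0.034 for TNF-α. With both drugs against TNF-α alone it moved by 0.076. In all, 64 members passed in none of the 7 comparisons of 2 groups, a count that was not made for all tested genes.

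The counts of the single treatments moved when single libraries were left out. Such a fit has fewer libraries for every gene. The matching counts over all tested genes were not made, so these moves are not particular to the members. The members higher with TNF-α were 3 in place of 6 without untreated replicate 1 or 2 or any of TNF-α replicates 1, 2 and 3, and the members lower were 4 in place of 7 without untreated replicate 2 or 3. For MCL, 4 members in place of 8 were higher without TNF-α replicate 1, and 12 in place of 21 were lower without TNF-α replicate 2. For ruxolitinib, the members higher were 1 in place of 6 without TNF-α replicate 1 and 3 without TNF-α replicate 2 or ruxolitinib replicate 3. The members lower with ruxolitinib were 2 in place of 8 without ruxolitinib replicate 2, 4 without TNF-α replicate 2, and 5 without TNF-α replicate 1 or 3 or ruxolitinib replicate 1. The counts with both drugs against TNF-α alone lay between 41 and 49 higher and 37 and 40 lower with any one library left out.

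**Figure D1:**
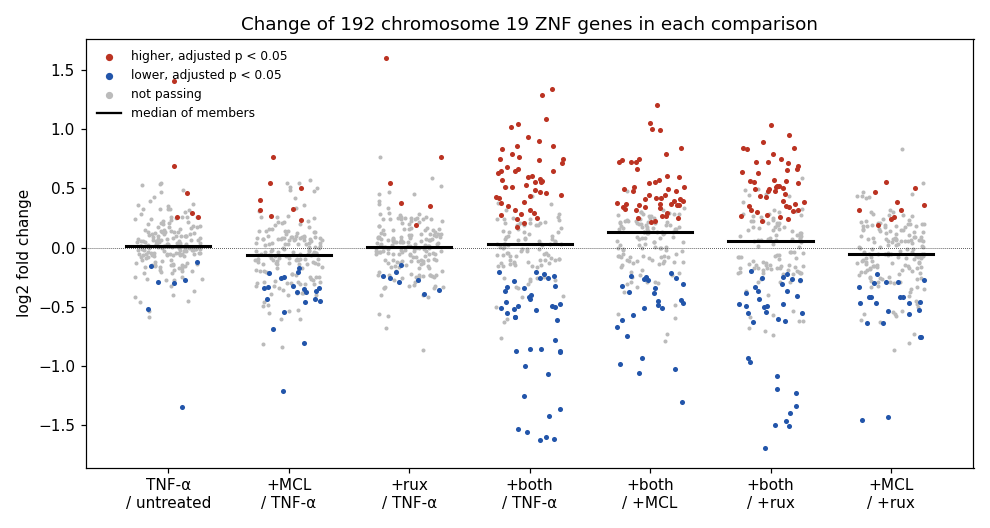
Log2 fold change of each of the 192 members (points, jittered sideways) in the 7 comparisons of 2 groups, with red and blue for members higher and lower at an adjusted p under 0.05, grey for the others and a black line at the median. The 51 red and 42 blue points with both drugs against TNF-α alone spread from -1.62 to 1.34, while TNF-α against untreated cells has 6 red and 7 blue points.

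Since members are low and low genes are harder to call, the members were set beside all tested genes in the same ranges of level. Each of the 3 equal groups by mean level held 64 members. In the highest group (11.8 to 120.3 CPM), 12.5% of members were called for TNF-α against untreated cells, beside 35.5% of the 7156 tested genes in that range. In the middle group (4.67 to 11.8 CPM) the shares were 3.12% of members and 23.2% of 1689 genes, and in the lowest group (0.676 to 4.63 CPM) 4.69% of members and 12.3% of 3840 genes. With both drugs against TNF-α alone the shares stood closer: 64.1% of members and 66.9% of genes in the highest group, 43.8% and 54.6% in the middle one, and 37.5% and 36.0% in the lowest. These shares are a description, with no test of the difference. Level and precision were not matched within a range. For TNF-α against untreated cells the median SE in the highest group was 0.093 for members and 0.065 for all genes. The middle group had 0.134 and 0.142, and the lowest 0.23 and 0.31. Of 208 genes with the same name pattern on other chromosomes, both drugs raised 81 and lowered 50 (median log2 change 0.12), and of 764 other protein-coding genes tested on chromosome 19 they raised 150 and lowered 304 (median -0.10).

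The log2 changes of members spread widest with both drugs against TNF-α alone (SD over members 0.54, beside 0.25 to 0.50 in the other 6 comparisons of 2 groups). ZNF792, a KRAB gene with 12 fingers (chromosome 19, 34956354 to 34964049, minus strand, hg38) had 6.60, 7.42 and 6.40 CPM with both drugs, 12.8, 14.2 and 15.6 with MCL, 24.3, 21.3 and 20.5 with ruxolitinib, 20.5, 20.1 and 21.5 with TNF-α alone, and 25.4, 24.8 and 25 in untreated cells. The combination libraries lay below all others, and the MCL libraries lay between them and the rest. ZNF792 was named by a rule that asks for groups without overlap in the comparison concerned. The same holds below for ZNF296, ZNF256, ZNF443, ZNF799, ZNF627, ZNF473 and ZNF222. Their separation in the comparisons that named them therefore adds no evidence. Its log2 change was -1.60 ± 0.10 with both drugs against TNF-α alone (SE, adjusted p = 4.22e-21), and -1.06 ± 0.11 against MCL and -1.69 ± 0.10 against ruxolitinib (adjusted p = 1.46e-12 and 2.7e-22). The log2 change was -0.55 with MCL alone (adjusted p = 4.19e-06) and 0.09 with ruxolitinib alone (adjusted p = 0.58), both against TNF-α alone, and -0.28 with TNF-α against untreated cells (adjusted p = 0.012). Each of the calls was made in every setting tried.

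ZNF296, whose mouse counterpart is active in pluripotent cells, had 4.06, 4.48 and 3.01 CPM with both drugs, 11.3, 8.03 and 9.15 with MCL, 7.89, 11 and 11.5 with ruxolitinib, 12.6, 10.2 and 12.6 with TNF-α alone, and 11.5, 10.7 and 11 in untreated cells. The 3 combination libraries lay below the other 12, which overlapped one another. Its log2 change against TNF-α alone was -1.61 ± 0.15 with both drugs (adjusted p = 8.9e-14), -0.31 with MCL (adjusted p = 0.0859) and -0.22 with ruxolitinib (adjusted p = 0.312). ZNF256, a KRAB gene at the end of the long arm, had 3.53, 3.66 and 3.01 CPM with both drugs, 7.08, 6.92 and 6.18 with MCL, 8.74, 7.60 and 6.96 with ruxolitinib, 9.60, 9.25 and 8.45 with TNF-α alone and 7.23, 8.5 and 7.09 in untreated cells. It too was lowest in the combination, with a log2 change of -1.42 ± 0.15 against TNF-α alone (adjusted p = 2.2e-12). MCL alone gave -0.43 (adjusted p = 0.0139), a call lost without TNF-α replicate 1 or 2 or MCL replicate 3 (adjusted p up to 0.0787).

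ZNF443 and ZNF799 are close relatives that lie near each other on the minus strand. ZNF443 had 0.985, 1.36 and 1.34 CPM with both drugs, 1.53, 2.09 and 2.60 with MCL, 3.34, 4.05 and 3.10 with ruxolitinib, 3.62, 3.96 and 3.29 with TNF-α alone and 2.99, 3.94 and 3.93 in untreated cells. ZNF799 had 1.27, 0.928 and 0.946 CPM with both drugs, 2.24, 1.70 and 2.04 with MCL, 2.67, 3.80 and 2.51 with ruxolitinib, 3.29, 3.12 and 2.73 with TNF-α alone and 3.62, 3.28 and 2.74 in untreated cells. In both genes the combination libraries lay below the MCL libraries, which lay below all others. Both fell with both drugs against TNF-α alone, by log2 changes of -1.55 ± 0.25 for ZNF443 (adjusted p = 1.8e-07) and -1.53 ± 0.26 for ZNF799 (adjusted p = 1.18e-06). With MCL alone ZNF443 had -0.81 (adjusted p = 0.00544, and 0.0678 without MCL replicate 1) and ZNF799 -0.61 (adjusted p = 0.057). Of the 100-base words of their transcripts, 18.5% of those of ZNF443 and 13.9% of those of ZNF799 also occur in another gene. ZNF443 shared most with ZNF799 (12.7%), and ZNF799 most with AC008758.5 (7.5%). How reads from such words were counted is unknown here, so the counts are uncertain to an extent that these percentages do not give. ZNF878, the lowest member by count, had a log2 change of -1.62 ± 0.49 (adjusted p = 0.00368) with 0.406, 0.437 and 0.223 CPM under both drugs against 1.31, 0.961 and 1.06 CPM with TNF-α alone. It overlaps ZNF433-AS1 on the other strand.

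**Figure D2:**
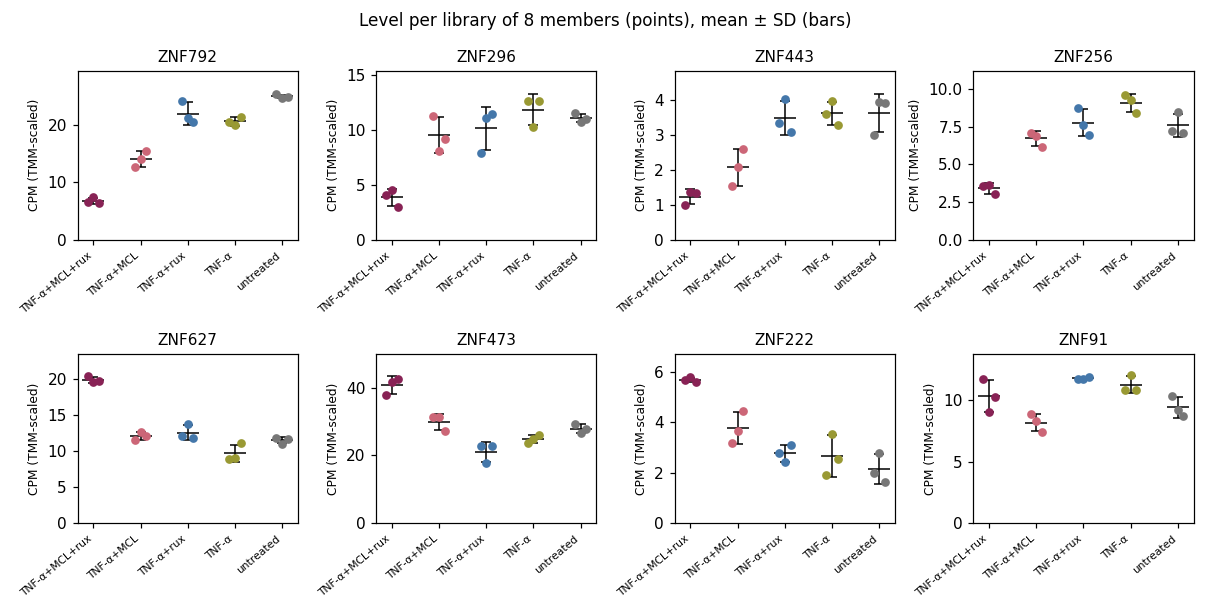
Level of 8 members in each library (CPM scaled by TMM, linear axis from 0) with the mean and SD of the 3 libraries of each group. ZNF792, ZNF296, ZNF443 and ZNF256 are lowest with both drugs, ZNF627, ZNF473 and ZNF222 are highest with both drugs, and ZNF91 is lowest with MCL.

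On the rising side, ZNF627 had 20.3, 19.5 and 19.8 CPM with both drugs, 11.5, 12.6 and 12 with MCL, 12.1, 13.7 and 11.8 with ruxolitinib, 8.81, 9.07 and 11.1 with TNF-α alone and 11.8, 11 and 11.6 in untreated cells. Its combination libraries lay above the other 12, and the log2 change against TNF-α alone was 1.04 ± 0.10 (adjusted p = 1.9e-13). Each drug alone also raised it, MCL by 0.32 (adjusted p = 0.0252) and ruxolitinib by 0.38 (adjusted p = 0.011). The MCL call was lost without TNF-α replicate 1 or 2 or MCL replicate 2 or 3 (adjusted p up to 0.125), and the ruxolitinib call without TNF-α replicate 1 or 2 or ruxolitinib replicate 2 (adjusted p up to 0.0761). ZNF844 had 3.94, 4.91 and 4.29 CPM with both drugs, 2.95, 3.46 and 2.47 with MCL, 2.25, 2.74 and 3.86 with ruxolitinib, 1.97, 1.5 and 1.74 with TNF-α alone and 2.43, 1.44 and 2.44 in untreated cells. The log2 change with both drugs was 1.34 ± 0.24 (adjusted p = 1.9e-06), the highest called among the members in that comparison. With each drug alone it was 0.77, calls lost without TNF-α replicate 2 or MCL replicate 2 for MCL, and without TNF-α replicate 2 or 3 or ruxolitinib replicate 3 for ruxolitinib (adjusted p up to 0.0885 and 0.23).

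ZNF473 encodes a factor of the machinery that processes the 3′ ends of histone transcripts. It had 37.8, 41.9 and 42.7 CPM with both drugs, 31.3, 31.5 and 27.3 with MCL, 22.8, 17.7 and 22.9 with ruxolitinib, 23.8, 24.9 and 26.0 with TNF-α alone and 29.3, 26.6 and 27.8 in untreated cells. The combination libraries were highest and the ruxolitinib libraries lowest, without overlap. Its log2 change against TNF-α alone was 0.71 ± 0.08 with both drugs (adjusted p = 4.02e-12), 0.27 ± 0.08 with MCL (adjusted p = 0.00842) and -0.24 ± 0.08 with ruxolitinib (adjusted p = 0.0432). The ruxolitinib call was lost in 9 of 12 settings, among them the fits without TNF-α replicate 1, 2 or 3 or ruxolitinib replicate 2 (adjusted p up to 0.505). ZNF473 overlaps VRK3 on the other strand, and whether the counts were made by strand is not given in the sources used here.

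ZNF699 and ZNF565 also rose over 2-fold with both drugs. ZNF699 had 5.27, 3.22 and 4.34 CPM with both drugs against 1.77, 2.28 and 2.24 with TNF-α alone, a log2 change of 1.02 ± 0.23 (adjusted p = 0.000101). ZNF565 had 3.24, 3.82 and 2.90 CPM with both drugs against 0.920, 1.26 and 1.86 with TNF-α alone, a log2 change of 1.29 ± 0.26 (adjusted p = 2.77e-05). ZNF565 lies across ZNF146 on the other strand, whose level is far higher (128, 134 and 131 CPM with both drugs, 115, 116 and 117 with TNF-α alone). Of the 14 members called with a change of at least 2-fold, 5 rose and 9 fell. The same cut was not applied to all tested genes, so no share stands beside this count.

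**Figure D3:**
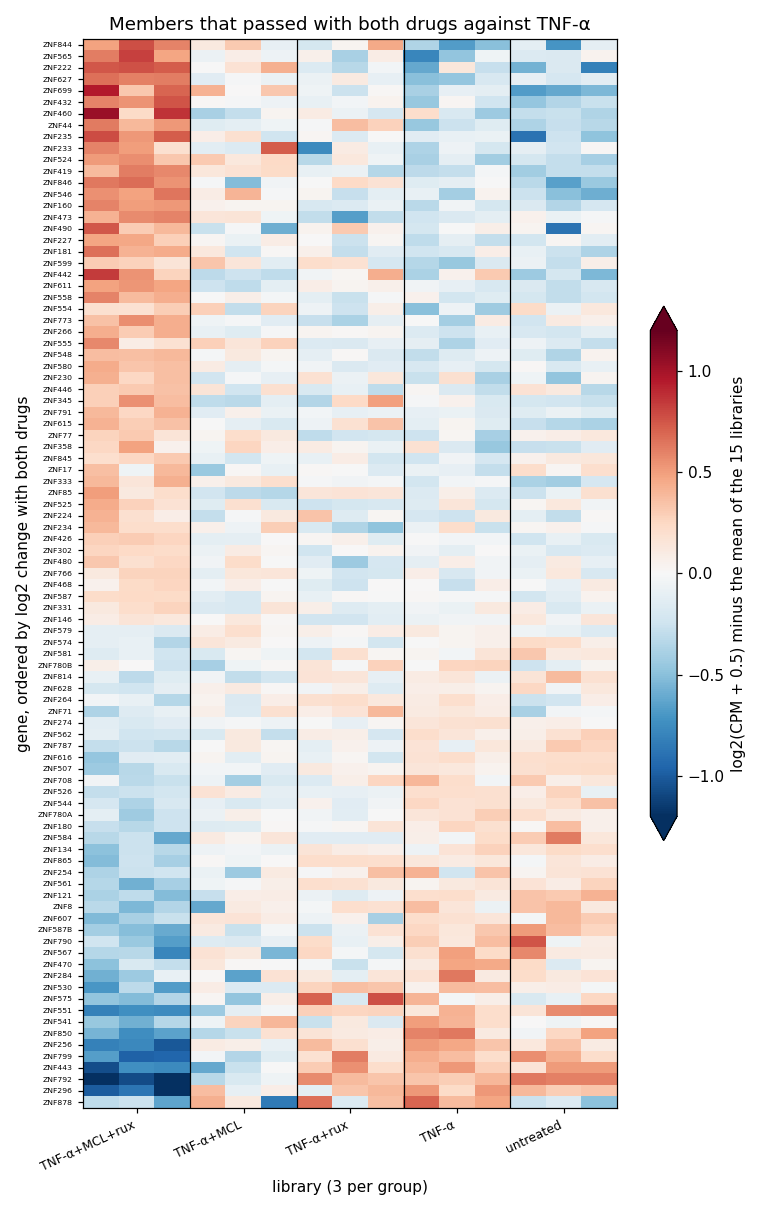
The 93 members called with both drugs against TNF-α alone (rows, from the highest to the lowest log2 change) in the 15 libraries (columns, 3 per group), coloured by log2(CPM + 0.5) minus the mean of the 15 libraries, red above and blue below it. The 51 upper rows rose and the 42 lower rows fell in the comparison by which the rows were picked and ordered. Their contrast between the combination and TNF-α libraries follows from that choice. Not every row is most extreme in the combination: ZNF708 had a log2 change of -0.43 both with MCL and with both drugs.

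The members stood in 16 stretches when neighbours whose starts lie less than 1 Mb apart were joined. The 28 members from ZNF175 to ZNF331 (51571298 to 53580269, hg38) had 10 higher and 1 lower with both drugs against TNF-α alone, with a median log2 change of 0.12. That is 39.3% called, beside 54.8% of all tested genes (25.5% higher and 29.3% lower). The strongest there were ZNF432 with 0.93, ZNF160 with 0.74 and ZNF611 with 0.63. ZNF160 had 43.0, 40.4 and 41.0 CPM with both drugs, 29.4, 29 and 29.1 with MCL, 24.8, 25.3 and 26.9 with ruxolitinib, 22.5, 27.6 and 24.4 with TNF-α alone and 25.1, 22.2 and 24.6 in untreated cells, so the combination stood clear of every other library (adjusted p = 7.86e-14). The 54 members from ZNF628 to ZNF446, near the end of the long arm, had 9 higher and 18 lower (50% called) with a median of -0.08. Among the 18 were ZNF256, ZNF551 with -1.07, ZNF530 with -0.88 and ZNF587B with -0.78, and among the 9 were ZNF460 with 0.90, ZNF524 with 0.79 and ZNF419 with 0.76. The stretches differ by count and median only, with no test of the difference. The genes of these 2 stretches named for this comparison were picked after their values were seen. ZNF460 was not called when the fit held only the groups compared (adjusted p = 0.0628).

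Under MCL alone the 15 members from ZNF101 to ZNF43 (19668796 to 21852125) had a median log2 change of -0.33 against TNF-α alone, with 5 lower and none higher (33.3% called lower, beside 15.1% of all tested genes). The 6 members from ZNF724 to ZNF254 (23221599 to 24129961) had a median of -0.36, with 1 lower and none higher (16.7%, near that share of all genes). The median over all 192 members was -0.06. The 5 that passed in the first stretch were ZNF101, ZNF714, ZNF431, ZNF708 and ZNF738, with log2 changes of -0.25, -0.38, -0.36, -0.43 and -0.34. The call of ZNF708 was lost without TNF-α replicate 1 or MCL replicate 2 (adjusted p up to 0.127), and that of ZNF738 without any of TNF-α replicates 1, 2 and 3 or MCL replicates 1 and 2, without a filter on low counts and with DESeq2 (adjusted p up to 0.0975). In the second it was ZNF91, the gene with the most fingers among the members, whose protein represses SVA retrotransposons. ZNF91 had 8.85, 8.29 and 7.42 CPM with MCL against 10.8, 12.1 and 10.9 with TNF-α alone, a log2 change of -0.46 ± 0.12 (adjusted p = 0.00272). With both drugs the medians of the stretches were -0.07 and -0.14, and ZNF91 had 11.7, 9.06 and 10.2 CPM, a log2 change of -0.13 (adjusted p = 0.374). With ruxolitinib alone the medians were 0.10 and 0.11, with no member called in the edgeR test at the adjusted threshold, and 6 of the 15 and 2 of the 6 were lower with MCL than with ruxolitinib (40% and 33.3%, beside 13.1% of all tested genes). The lowest of these was ZNF493, with 5.25, 4.44 and 5.13 CPM under MCL against 7.89, 7.97 and 9.12 under ruxolitinib, a log2 change of -0.75 ± 0.15 (adjusted p = 3.68e-05).

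**Figure D4:**
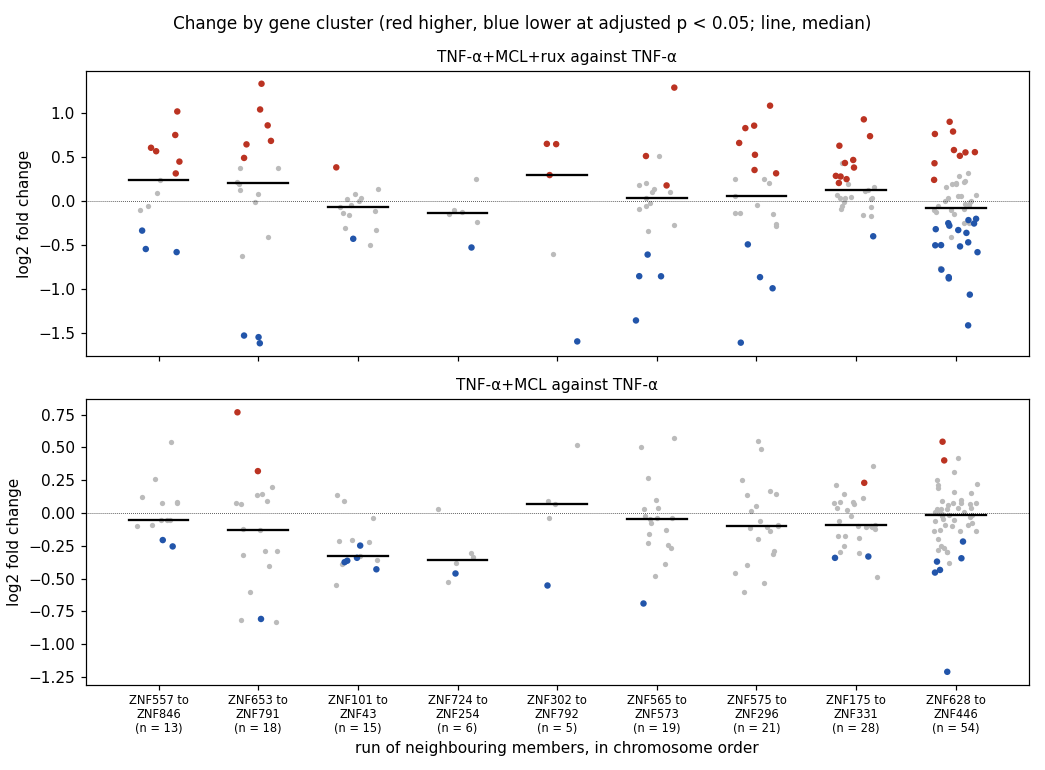
Log2 fold change of the members (points) in the 9 stretches with at least 5 members, in chromosome order from left to right, with both drugs against TNF-α alone above and MCL against TNF-α alone below, red and blue for members higher and lower at an adjusted p under 0.05 and a line at each median. In the lower panel the stretches from ZNF101 to ZNF43 and from ZNF724 to ZNF254 have medians of -0.33 and -0.36.

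The 21 members from ZNF575 to ZNF296 include a tight family around ZNF224, a cofactor of the transcription factor WT1, and with both drugs 7 of the 21 rose and 4 fell (52.4% called, near the 54.8% of all tested genes). The promoters of this family share a repeated word. RefSeq promoter sequences (GRCh38.p14) were at hand for 173 of the 192 members, and the window from 250 bases before each start to 50 after it was searched on both strands. The word TTCTGGGAA, chosen like the ZNF143 motif after the promoters were read, is a form of TTCNNNGAA, the palindrome bound by STAT factors. In 13 of its 27 occurrences in members it overlaps a match to a motif of ZNF143, ACTACA and TCCC with any 2 bases between. Only exact matches to that motif were counted, so copies beside a near match are not among the 13. The word stood in 20 of 173 member promoters (11.6%), beside 1.14% of 10374 promoters of tested genes and 1.09% of all 27305. In the stretch from ZNF575 to ZNF296 it stood in 11 of 17 promoters (64.7%), 5 of them with more than 1 copy, and elsewhere in 9 of 156 (5.77%). The promoters shown are those of ZNF225, which has the most copies, of ZNF227 and ZNF235, which rose with both drugs, and of ZNF284, which fell. Each is the 250 bases before the RefSeq start, 5′ to 3′ on the strand of the gene, with the word in capitals. They lie at chr19:44113149-44113398, chr19:44212282-44212531, chr19:44305026-44305275 (minus strand) and chr19:44071909-44072158.

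ZNF225: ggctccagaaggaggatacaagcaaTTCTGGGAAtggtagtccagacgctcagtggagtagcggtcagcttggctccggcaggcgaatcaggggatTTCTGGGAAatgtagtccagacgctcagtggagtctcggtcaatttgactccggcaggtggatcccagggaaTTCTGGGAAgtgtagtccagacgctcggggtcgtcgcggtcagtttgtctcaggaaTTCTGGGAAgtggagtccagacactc
ZNF227: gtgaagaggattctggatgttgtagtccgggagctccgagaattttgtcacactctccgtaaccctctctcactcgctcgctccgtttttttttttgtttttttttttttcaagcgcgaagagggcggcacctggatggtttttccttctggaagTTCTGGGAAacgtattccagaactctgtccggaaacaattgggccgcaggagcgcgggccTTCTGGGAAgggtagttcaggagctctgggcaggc
ZNF235: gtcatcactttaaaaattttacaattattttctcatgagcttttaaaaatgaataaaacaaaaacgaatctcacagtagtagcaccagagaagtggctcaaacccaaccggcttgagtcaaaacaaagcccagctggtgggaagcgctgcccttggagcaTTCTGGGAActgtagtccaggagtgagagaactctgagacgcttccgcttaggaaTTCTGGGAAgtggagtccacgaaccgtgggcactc
ZNF284: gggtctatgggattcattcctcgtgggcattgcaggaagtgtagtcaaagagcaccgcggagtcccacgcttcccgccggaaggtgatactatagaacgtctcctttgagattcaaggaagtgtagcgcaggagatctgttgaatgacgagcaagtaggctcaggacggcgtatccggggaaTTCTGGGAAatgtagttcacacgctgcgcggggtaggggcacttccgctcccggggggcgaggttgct

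In ZNF225 the copies recur along the whole window, and in all 4 promoters a copy lies in the part nearest the start of the gene. ZNF227 had 17.5, 17.3 and 15.3 CPM with both drugs against 9.99, 11.5 and 10.1 with TNF-α alone, a log2 change of 0.66 ± 0.11 (adjusted p = 3.11e-07). ZNF235 had 7.42, 6.11 and 7.13 CPM with both drugs against 3.68, 3.84 and 3.85 with TNF-α alone, a log2 change of 0.86 ± 0.18 (adjusted p = 3.02e-05). These genes overlap each other on opposite strands. ZNF222, with 1 copy, had 5.68, 5.79 and 5.62 CPM with both drugs, 3.19, 3.66 and 4.45 with MCL, 2.79, 2.43 and 3.10 with ruxolitinib, 1.91, 3.54 and 2.55 with TNF-α alone and 2, 2.78 and 1.61 in untreated cells. Its combination libraries lay above the other 12, with a log2 change of 1.09 ± 0.20 (adjusted p = 6.96e-06).

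Members with the word moved in either direction. ZNF225, with 8.57, 8.35 and 8.02 CPM under both drugs against 7.03, 7.27 and 6.71 with TNF-α alone, did not pass (log2 change 0.25, adjusted p = 0.112). ZNF284, with 1.04, 1.2 and 1.67 CPM under both drugs against 2.10, 3.06 and 1.99 with TNF-α alone, had a log2 change of -0.87 ± 0.28 (adjusted p = 0.00744, and 0.0965 without TNF-α replicate 2), and 42.5% of its 100-base words also occur in another gene. Over all members with the word, 11 rose and 4 fell of 20 with both drugs (median log2 change 0.27), and of the 153 promoters without it 36 members rose and 38 fell (median -0.01), beside 25.5% of all tested genes higher and 29.3% lower. Within the stretch, 6 of the 11 with the word rose and 2 fell, and of the 6 without it none rose and 2 fell. The word was chosen after these promoters were read, and 11 of the 20 with it lie in that stretch, which includes a family of related genes. These counts are a description, with no test of the difference. The broader TTCNNNGAA stood in 17.9% of member promoters and 6.31% of promoters of tested genes. Promoters with the word all count in these shares. TTCNNNGAA without the word stood in 11 of all 173 member promoters (6.36%) and in 537 of all 10374 promoters of tested genes (5.18%). The ZNF143 motif stood in 16.8% and 4.02%. TGACNNNGC, the core of the NRF2 site, stood in 13.9% and 15.4%, TGANTCA, the AP-1 site, in 6.36% and 4.6%, TGATGNAA, the ATF4 site, in 1.2% and 1.71%, and GGG and CC with any 5 bases between, the outer bases of the NF-kB site, in 76.3% and 72.9%. A match says only that the letters are there.

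MCL alone against TNF-α alone raised ZNF524 and lowered ZNF551, both in the stretch from ZNF628 to ZNF446. ZNF524 had 16.5, 14.4 and 15.6 CPM with MCL against 9.93, 12.1 and 9.75 with TNF-α alone, a log2 change of 0.54 ± 0.11 (adjusted p = 0.00012). ZNF551 had 10.4, 13.1 and 14 CPM with MCL against 15.6, 19.1 and 16.5 with TNF-α alone, a log2 change of -0.45 ± 0.11 (adjusted p = 0.00104). Both genes were named by a rule that asks for groups without overlap, so their separation adds no evidence. ZNF524 overlaps FIZ1 and ZNF551 overlaps ZNF154, each on the other strand. Ruxolitinib alone lowered ZNF526, with 23.5, 23.3 and 23.8 CPM with ruxolitinib against 28.9, 28.9 and 28.7 with TNF-α alone, a log2 change of -0.29 ± 0.08 (adjusted p = 0.00632), a call kept in every setting. Also lower was ZNF175, known as OTK18 in macrophages where it represses the HIV-1 promoter, with 11, 10.3 and 14.3 CPM with ruxolitinib against 16, 16.6 and 14.3 with TNF-α alone (log2 change -0.39 ± 0.11, adjusted p = 0.00631). Without TNF-α replicate 2 or ruxolitinib replicate 1 or 2 it did not pass (adjusted p up to 0.106). ZNF563, at 1.46, 0.809 and 1.17 CPM with ruxolitinib, 0.197, 0.541 and 0.373 with TNF-α alone and 1.06, 1.11 and 0.715 in untreated cells, had a log2 change of 1.60 ± 0.46 with ruxolitinib against TNF-α alone (adjusted p = 0.00954). The call was lost without TNF-α replicate 1 or ruxolitinib replicate 1 and with DESeq2 (adjusted p up to 0.078).

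TNF-α against untreated cells moved few members far. ZNF221 had 4.08, 3.06 and 3.54 CPM with TNF-α against 2.31, 2 and 2.32 in untreated cells, a log2 change of 0.69 ± 0.22 (adjusted p = 0.0154, lost without TNF-α replicate 1 or untreated replicate 2, up to 0.0938). ZNF566 had 5.00, 4.74 and 4.22 CPM with TNF-α against 7.36, 5.72 and 6.97 in untreated cells, a log2 change of -0.52 ± 0.17 (adjusted p = 0.0177, lost without TNF-α replicate 3 or untreated replicate 1 or 3, up to 0.0800). ZNF878 had 1.31, 0.961 and 1.06 CPM with TNF-α against 0.437, 0.5 and 0.298 in untreated cells, a log2 change of 1.41 ± 0.48 (adjusted p = 0.0217, lost without TNF-α replicate 1 or untreated replicate 1 or 3, up to 0.104). These 3 genes were named by a rule that asks for groups without overlap, and each call hung on single libraries.

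Adding ruxolitinib to MCL raised 50 members and lowered 26 (39.6% called, beside 41.6% of all tested genes, 19.6% higher and 22% lower), with a median log2 change of 0.13 over the members and -0.01 over all genes. Adding MCL to ruxolitinib raised 47 and lowered 35 (42.7%, beside 51.7%, 24.8% higher and 26.8% lower), with medians of 0.06 and -0.02. The member median was 0.00046 without ruxolitinib replicate 1, 0.039 and 0.024 without combination replicates 2 and 3, and below 0 (-0.0056) without combination replicate 1. MCL against ruxolitinib gave 10 higher and 23 lower (17.2%, beside 27.5%, 14.3% higher and 13.1% lower), with medians of -0.06 and -0.01, the member median being -0.027 without ruxolitinib replicate 3 and -0.036 without MCL replicate 3. ZNF846, which rose when ruxolitinib was added to MCL, had 8.57, 8.79 and 8.02 CPM with both drugs against 5.31, 3.59 and 5.19 with MCL, and its log2 change was 0.84 ± 0.15 (adjusted p = 6.67e-06). ZNF442 had 3.88, 3.06 and 2.45 CPM with both drugs against 1.47, 1.57 and 1.48 CPM with MCL, and its log2 change was 1.05 ± 0.26 (adjusted p = 0.00084). The comparisons with both drugs share the 3 combination libraries.

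The log2 effect of MCL on top of ruxolitinib, minus that of MCL alone, passed in 23 members above 0 and 8 below (16.1%, beside 25% of all tested genes, 12.2% above and 12.8% below). The 23 became 15 without TNF-α replicate 2 or MCL replicate 1 and 13 without ruxolitinib replicate 2. The median was 0.11 over the members and 0.01 over all tested genes. The 208 genes of the same name pattern on other chromosomes leaned the same way, with 41 above 0, 15 below and a median of 0.10, and for ruxolitinib added to MCL with 69 higher, 31 lower and a median of 0.12. The stretch from ZNF175 to ZNF331 held 10 of the 23 and none of the 8. ZNF175 itself had 16.8, 16.4 and 19.3 CPM with both drugs, 13.1, 12.3 and 11.9 with MCL, 11, 10.3 and 14.3 with ruxolitinib, 16, 16.6 and 14.3 with TNF-α alone and 16.2, 16.5 and 14.6 in untreated cells. Its log2 change was -0.33 with MCL (adjusted p = 0.0159, lost without TNF-α replicate 1 or 2 or MCL replicate 2 or 3, up to 0.101), -0.39 with ruxolitinib and 0.16 with both (adjusted p = 0.176). The difference between the MCL effects was 0.89 ± 0.15 (adjusted p = 3.88e-06). Below 0 lay ZNF792 with -1.15 ± 0.14 (adjusted p = 1.31e-09), ZNF296 with -1.08 ± 0.21 (adjusted p = 4.22e-05) and ZNF256 with -0.75 ± 0.21 (adjusted p = 0.00409), whose fall with both drugs exceeded the sum of the separate changes.

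Several members have a known role. ZNF71 is named for its induction by TNF-α in endothelial cells, and here it had 13.3, 13.6 and 13.1 CPM with TNF-α against 9.29, 12 and 12.1 in untreated cells. The groups did not overlap, but the log2 change of 0.26 ± 0.12 missed the threshold (adjusted p = 0.0964). ZNF675, an inhibitor of signalling through TRAF6, lay between 6.71 and 9.61 CPM in the 15 libraries and passed in none of the 7 comparisons. ZNF274, which recruits SETDB1 to the 3′ ends of zinc finger genes, had 27.7, 26.6 and 27.5 CPM with both drugs, 29.4, 30.1 and 29.1 with MCL, 30.3, 28.3 and 30.8 with ruxolitinib, 33.7, 34.5 and 34.7 with TNF-α alone and 31.6, 32.1 and 30.3 in untreated cells. It was highest with TNF-α alone, and the log2 change with both drugs was -0.33 ± 0.07 (adjusted p = 2.28e-05). ZNF587 and ZNF417, a closely related pair that represses endogenous retroviruses, differed. ZNF587 rose with both drugs by 0.24 ± 0.08 (26.3, 26.6 and 26.6 CPM with both drugs against 22.8, 22.3 and 22.2 with TNF-α alone, adjusted p = 0.00829), and ZNF417 had -0.15 ± 0.15 (7.01, 6.60 and 9.63 CPM with both drugs against 9.47, 8.95 and 7.39 with TNF-α alone, adjusted p = 0.42). The difference between the pair was not tested, and 25.9% of the 100-base words of ZNF417 and 11.4% of those of ZNF587 occur in another gene. ZNF331, an imprinted gene, had 22.8, 24.2 and 25.3 CPM with both drugs against 20.2, 19.8 and 22.7 with TNF-α alone, a log2 change of 0.20 (adjusted p = 0.0478) lost without TNF-α replicate 1 or 2 or combination replicate 2 or 3 and with DESeq2. ZNF420, an inhibitor of p53 in unstressed cells, and ZNF808, needed for pancreas development, had log2 changes with both drugs of 0.19 and 0.13 (adjusted p = 0.439 and 0.454).

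Of 20 tested genes listed as partners of KRAB repression, 11 fell and 2 rose with both drugs against TNF-α alone. Over all tested genes, 29.3% were lower and 25.5% higher. The list includes genes of wider roles, such as UHRF1 and DAXX. Its genes are also well expressed, with a lowest group mean of 38.5 CPM (MORC2 with ruxolitinib). Of tested genes at 11.8 to 120.3 CPM, 66.9% were called, 52.4% of these higher, and some listed genes, such as TRIM28, lie above that range. UHRF1, which helps to copy DNA methylation, had 110.4 ± 4.12 CPM with both drugs, 172.1 ± 10.9 with MCL, 212 ± 6.42 with ruxolitinib, 220 ± 3.39 with TNF-α alone and 234.9 ± 11.1 in untreated cells (SD, n = 3 each). Its log2 change with both drugs against TNF-α alone was -0.99 ± 0.04 (adjusted p = 3.14e-30). CHD4, the helicase of the NuRD complex, changed by -0.97 (adjusted p = 1.16e-22), the HP1 gene CBX5 by -0.60 (adjusted p = 1.9e-22), the histone chaperone gene DAXX by -0.40 (adjusted p = 5.83e-11) and HDAC2 by -0.35 (adjusted p = 1.92e-13). TRIM28 itself changed by -0.18 ± 0.03 (850 ± 22.7 CPM with both drugs, 966 ± 20.8 with TNF-α alone, SD, n = 3 each, adjusted p = 1.77e-06). The 2 that rose were ATF7IP with 0.16 and CBX1 with 0.14. ATF7IP was not called without TNF-α replicate 1, nor CBX1 without TNF-α replicate 1 or 3 or combination replicate 2 or 3 (adjusted p up to 0.131 and 0.124). MCL alone lowered 7 and raised 1 of the 20 (26% of all tested genes called), and ruxolitinib alone lowered 1 and raised none (15.7% of all tested genes called). TNF-α against untreated cells raised 4 and lowered 4 (26.6% of all tested genes called).

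By the reading frames of their GENCODE 29 transcripts, the members encode a median of 12 fingers, from 0 in ZNF738 to 31 in ZNF91. A KRAB A-box pattern that asks for its usual tryptophan was found in 142 members. ZNF224, a known KRAB protein, did not match, so a missing match does not show a missing domain. With both drugs against TNF-α alone, 36 of the 142 with the pattern rose and 27 fell, and 15 of the other 50 rose and 15 fell, with medians of 0.03 and -0.01, beside 54.8% of all tested genes called in either direction. Of the members with 16 or more fingers, 11 of 41 rose and 11 fell. Transcripts of 83 members shared at least 1 word of 100 bases with another gene, 26 over more than 10% of their words. Of the 166 at 10% or less, 44 rose and 34 fell with both drugs. The 117 members that overlap no other tested gene had 32 higher and 24 lower (47.9% called, beside 48.4% of all members).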

How the data were processed

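RNA-seq libraries of UKE-1 cells numbered 15, with 3 in each of 5 groups. The values deposited are raw counts, whole numbers of reads for each of 58735 genes, with no scaling. According to the submitters' processing notes, which state neither role nor order, the tools were HISAT2 2.0.5, featureCounts 1.5.0-p3 and DESeq2 1.16.1, and hg38 and mm10 were the builds. How strand and multiply matching reads were treated is unknown here. Reads of overlapping genes (75 of 192 members overlap another tested gene, 49 on the other strand) and of near-identical copies therefore cannot be separated. Member coordinates equal those of GENCODE 29 in 192 of 192 cases. Columns headed as control were read as untreated cells.

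edgeR 4.0.16 (R 4.3.3) was used on the counts. Its filterByExpr step (minimum count 10) removed 42589 genes and kept 16146. One model with TMM scaling and a term for each group covered the 15 libraries and left 10 residual degrees of freedom. Robust quasi-likelihood F-tests gave the p-values, adjusted by Benjamini-Hochberg across the kept genes and called under 0.05. Each SE equals the size of the log2 change over the root of F. The biological coefficient of variation came to 0.0404. The tests comprised 7 comparisons of 2 groups and 1 contrast for the non-additive effect. Levels are CPM with TMM factors. Library totals of 15476399 to 18035604 limit the precision, most of all for members near the minimum count. A chi-square test found every pair of libraries within a group to differ beyond counting noise (1.98 to 3.91 per degree of freedom) and none was taken for a repeat deposit.

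Alternatives were DESeq2 1.42.0, its size factors, library totals, no filter, the compared groups alone, the replicate number as a block, and each library left out. The scripts were tested on simulated counts.

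Members and lists were chosen with earlier results of these data known. The rule for named genes took, for each comparison of 2 groups, up to 5 highest and 5 lowest called members that reached 1 CPM in the higher group and whose libraries did not overlap. For the non-additive effect it took up to 3 on each side. It added the 4 members at either end by level per kilobase and a panel of 15 genes with a textbook role, 13 of them members. Some of these are not described. Genes of the stretches and promoters were added after their values were seen. Fingers and the KRAB pattern were read from the longest frames of GENCODE 29 transcripts.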

Additional observations from a re-analysis of the deposited data

Results flagged for a closer look

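In 10 named members the log2 effect of MCL differed with and without ruxolitinib, by the test of that difference in the edgeR model over all genes. The effect with ruxolitinib exceeded the effect without it by 0.93 in ZNF460, 0.89 in ZNF175, 0.72 in ZNF773, 0.68 in ZNF473, 0.55 in ZNF808, 0.35 in ZNF587 and 0.22 in ZNF146. It was below it by a difference of -0.75 in ZNF256, -1.08 in ZNF296 and -1.15 in ZNF792.

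ZNF460 had 20.3, 11.4 and 18 CPM with both drugs, 7.25, 7.83 and 9.89 with MCL, 10.4, 9.15 and 8.30 with ruxolitinib and 11.2, 8.41 and 7.02 with TNF-α alone. Its combination libraries were the most spread, and the difference (adjusted p = 0.0311) was lost without TNF-α replicate 1 or 2, MCL replicate 1 or 2, ruxolitinib replicate 2 or 3 or combination replicate 3, and when the fit held only the groups compared (adjusted p up to 0.0877). ZNF773 had 8.69, 10.2 and 9.24 CPM with both drugs, 6.49, 6.66 and 6.06 with MCL, 5.46, 5.04 and 6.20 with ruxolitinib and 6.71, 4.93 and 7.20 with TNF-α alone (adjusted p = 0.00701), and was called in every setting. ZNF587 (adjusted p = 0.0178) was lost without MCL replicate 1 or 2 or ruxolitinib replicate 1. ZNF808 (adjusted p = 0.0395) was lost in 12 of 18 settings, namely without TNF-α replicate 2 or 3, MCL replicate 1 or 2 or any ruxolitinib or combination library, with no filter on low counts and with DESeq2 (adjusted p up to 0.138). ZNF146, ZNF175, ZNF256, ZNF296, ZNF473 and ZNF792 were called in every setting. ZNF460 overlaps ZNF460-AS1, ZNF146 overlaps ZNF565, ZNF473 overlaps VRK3, ZNF587 overlaps ZNF814, ZNF808 overlaps ZNF701 and ZNF296 overlaps GEMIN7-AS1, and the part of these neighbours in the differences was not tested.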

How the results depend on the processing

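With library totals in place of TMM factors, which moved the median of all genes by at most 0.076 on the log2 scale, TNF-α against untreated cells had 3 members higher and 13 lower with a median log2 change of -0.021. MCL against TNF-α had 13 higher with a median of -0.026, ruxolitinib 5 lower, and the medians with both drugs were 0.10 against TNF-α alone, 0.17 against MCL and 0.11 against ruxolitinib. With DESeq2, 2 members were higher with TNF-α and 5 lower with ruxolitinib. Without a filter on low counts, 13 were lower with MCL (median -0.036) and 5 with ruxolitinib. Counts over all tested genes were not made in these settings, and the cause was not tested.

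With 1 library left out at a time, TNF-α had 3 to 6 higher and 4 to 6 lower, MCL 4 to 7 higher and 12 to 18 lower (median -0.078 to -0.042), and ruxolitinib 1 to 5 higher and 2 to 10 lower. The median with both drugs against ruxolitinib ran from -0.0056 to 0.067, that with MCL against ruxolitinib from -0.057 to -0.027, and the members above 0 in the non-additive effect numbered 13 to 22. Leaving out a library also leaves fewer degrees of freedom for every gene, and counts over all tested genes were not made in these fits.

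The replicate number as a block left every count within 1.5 times (50 higher and 43 lower with both drugs against TNF-α alone, in place of 51 and 42). Deviations from the group means correlated at -0.048 to 0.048 between libraries with the same number and at -0.071 to 0.072 between the others. Of 15 libraries, 7 correlated best with their own number. No clear pairing by number was seen, but over all tested genes, many of them low, a weak pairing could be missed. Of 140 called gene results examined singly, 85 were called in every setting and 55 were lost in at least 1. None changed sign with a call, and 62 changes of sign in 30 results were of genes that passed in neither fit.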
